A study of Homo sapiens with 18 samples.

Results

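WAPL loss was followed in HAP1 cells, a near-haploid human line derived from a chronic myeloid leukaemia, by polyadenylated, strand-specific RNA-seq of 12 of the 18 samples of the series: every WT and every WaplKO sample, and none of the SCC4KO or DKO samples, which were not used here. The 6 WT samples are unedited HAP1 cells (controls), 3 in set A and 3 in set B. The knockout samples (*ΔWAPL* cells) are 3 of WaplKO_3.3 and 3 of WaplKO_1.14, clones made by CRISPR cutting in WAPL with insertion of a blasticidin resistance cassette. The labels give the set letter for controls only, and clone 3.3 was set against controls of set A and clone 1.14 against those of set B by the sequencing request in the file names. Each clone is 1 line grown from edited cells, and its 3 samples were not stated to come from separate cultures, so the p-values measure a spread between samples that may be technical. Genotype, clonal history and set cannot be told apart within a clone. What follows therefore concerns gene families and gene clusters that moved in the same direction in both clones.

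Cohesin is a ring-shaped complex that holds DNA in loops and holds sister chromatids together. WAPL opens the ring and lets it come off DNA, NIPBL with MAU2 promotes its loading, and CTCF marks the sites where loops are commonly anchored. Genes with distant enhancers, such as clustered protocadherins and HOX genes, lie in regions where such loops bring promoters and regulatory elements together.

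The WAPL guide named in the study's methods, shown here because it marks the edited site, matched GRCh37 chr10:88259864-88259882 on the plus strand. WAPL (chr10:88195013-88281549) lies on the minus strand, and the site is in coding sequence of exon 3. In the plus-strand stretch around it, capitals mark the 19 bases that match the guide and the 3 bases of the adjoining NGG motif that Cas9 requires.
WAPL site: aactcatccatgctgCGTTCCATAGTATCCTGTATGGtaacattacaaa

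WAPL transcripts were at 78, 98.3 and 121 CPM in controls of set A, 50.1, 40.4 and 40.3 in clone 3.3, 127, 104 and 131 in controls of set B and 42.3, 37.9 and 43.3 in clone 1.14 (CPM, reads per 1000000 reads on genes after normalisation for library composition). Every *ΔWAPL* library was below every control library of its set, and overlap is judged within sets throughout. WAPL RNA stood at 44% of the control mean in clone 3.3 and at 34.2% in clone 1.14, a log2 fold change of -1.37 ± 0.12 in the fit over both clones (edgeR quasi-likelihood test, adjusted p = 1.01e-06). An exact two-sided permutation test within sets gave p = 0.005, the smallest its 400 splits allow. Reads over the whole gene were counted, including parts outside the cut site, so the remaining RNA says nothing about protein.

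Total reads on genes ranged from 14212412 to 20711127 per library. Of 12 markers of blood cells, 11 were below 1 CPM in every library and only KIT, a growth factor receptor, passed the filter on low counts. CD3E, HBG1, MPO and SPI1 had no read. The summed level of the 12 blood markers spanned 14.2 to 22.7 CPM in controls of set A, 13.3 to 15.8 in clone 3.3, 21.9 to 23.6 in controls of set B and 20.4 to 22.7 in clone 1.14. Of 6 fibroblast markers 2 passed, 1 of them was called lower over both clones, and DCN and LUM had no read. Their summed level was 13.7 to 15 CPM in controls of set A and higher in clone 3.3, at 16.6 to 21.9, whereas it was 21.8 to 23.8 in controls of set B and lower in clone 1.14, at 19.9 to 21.7. The part of these markers in the results was not tested. No endothelial marker passed. Genes were split into 5 equal bins by GC content from the first to the last annotated base of the gene. In the lowest bin, 1 control of set A (replicate 1) and 1 of set B (replicate 2) had median log2 deviations of -0.257 and -0.264 from their set's control mean. The *ΔWAPL* libraries ranged from -0.017 to 0.269 there. Results were therefore also computed without those 2 controls and with an offset that levels each library's trend on exon GC content.

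The model compared 6 control with 6 *ΔWAPL* libraries with the set as covariate, and a gene was called at a Benjamini-Hochberg adjusted p of 0.05. Of 12786 genes tested, 8.56% were called higher and 9.13% lower over both clones, and 8.49% and 9.10% also had that sign in each clone taken alone. A gene is said here to have changed in both clones where it was called over both clones and in each clone's own contrast, in the same direction. That held for 3.07% of tested genes upward and 3.40% downward. The change itself differed between the clones for 2.65% of genes. The values below are log2 fold changes of *ΔWAPL* over control ± SE. Over all genes the median was 0.005 on that scale.

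Of the remaining cohesin genes only RAD21 was called in the fit to all 12 libraries. It encodes the subunit that closes the ring and was called over both clones (0.34 ± 0.10, adjusted p = 0.03) but not in both clones separately. The ring subunits SMC1A (-0.08) and SMC3 (0.32), the HEAT-repeat subunits STAG1 (-0.06) and STAG2 (0.33), the loader genes NIPBL (0.42) and MAU2 (-0.07), the acetyltransferases ESCO1 (0.24) and ESCO2 (0.27), the WAPL partners PDS5A (0.18) and PDS5B (0.05), and CTCF (0.01) did not pass the test over both clones. RAD21 was not called with the GC offset (0.07) or without the 2 controls that stood apart (0.20). PDS5B was called lower in both clones with the GC offset (-0.28).

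The 79 gene lists were drawn up for the tissue and the perturbation with earlier results of these data known. Their shares of called genes are therefore descriptions and not tests of the lists. Of the 79 lists, 29 held at least 3 members that had changed in both clones in 1 direction. They were mainly lists of cell surface, matrix, signalling and developmental genes. The 8 lists of genes for DNA replication, mitosis, recombination, ribosomes, mitochondrial ribosomes, oxidative phosphorylation, the proteasome and Mediator moved little. Of their 451 tested genes, 9 were called higher and 12 lower over both clones, 4.66% against 17.7% of all genes, and 1 changed in both clones (5 with the GC offset and 2 without the 2 controls described above). Their list medians lay between -0.102 and 0.114. Of 81 ribosomal protein genes, 54 were lower in each clone and 1 was higher in each, by small amounts (median -0.102, and -0.055 with the GC offset). Of all 12786 genes, 4157 were lower and 4570 higher in each. The 5 ribosomal genes called lower over both clones became 21 without replicate 3 of the set A controls and 1 without replicate 2. In 13 lists no member changed in both clones.

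**Figure D1:**
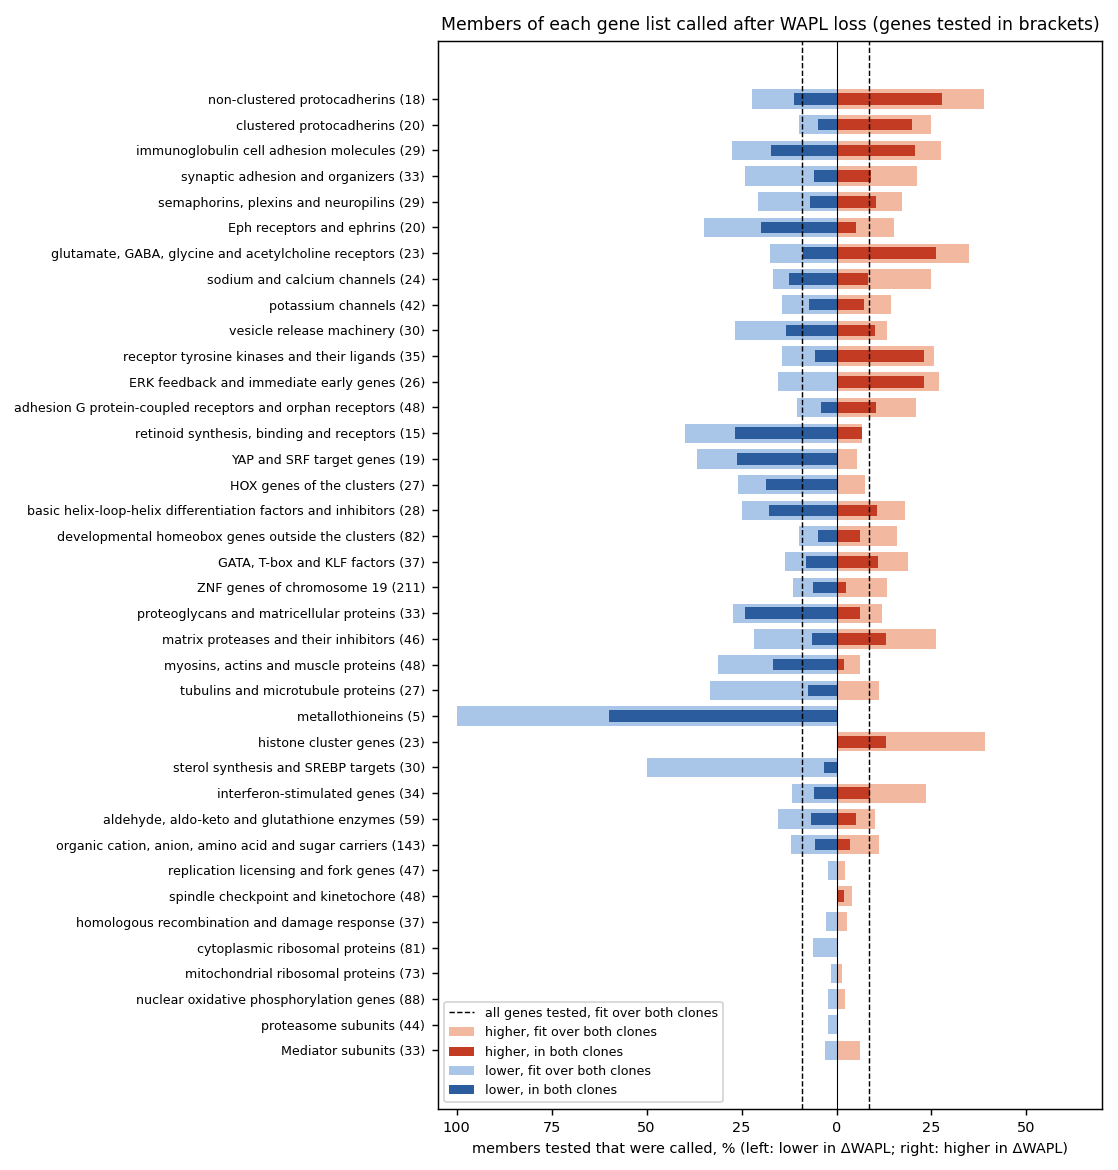
Share of tested members (horizontal axis, percent) called in each gene list, with genes tested in brackets; bars to the right are higher and to the left lower in *ΔWAPL* cells, pale bars count calls in the fit over both clones and dark bars changes in both clones, and dashed lines mark the shares over all genes, 8.56% and 9.13%. Most lists hold genes of both directions. Metallothioneins and sterol synthesis genes (both kinds of call) and HOX genes, YAP and SRF targets and tubulins (in both clones) show falls only. So do ribosomal and proteasome genes in the fit over both clones. Histones and mitosis genes (both kinds of call) and ERK feedback genes (in both clones) show rises only.

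Cell adhesion genes moved in both directions. Non-clustered protocadherins, calcium-dependent adhesion proteins that cells use to recognise each other, numbered 18 among tested genes. Of these, 7 (38.9%) were called higher and 4 (22.2%) lower over both clones, against 8.56% and 9.13% of all genes. In both clones 5 rose (27.8% against 3.07% of all genes) and 2 fell (11.1% against 3.40%). In bulk RNA, fewer cells that express a gene and less of its RNA per cell cannot be told apart. PCDH7 was at 0.716, 0.492 and 1.49 CPM in controls of set A, 11.5, 10.9 and 8.16 in clone 3.3, 1.71, 1.34 and 1.69 in controls of set B and 12.2, 11.7 and 10.8 in clone 1.14. The *ΔWAPL* and control libraries did not overlap, and the log2 fold change was 3.14 ± 0.19 (edgeR, adjusted p = 2.50e-08), with 3.48 in clone 3.3 and 2.87 in clone 1.14. PCDH17 was at 3.12, 4.74 and 5.06 CPM in controls of set A, 23.8, 29.4 and 22.2 in clone 3.3, 5.33, 3.15 and 4.89 in controls of set B and 31.7, 29.6 and 34.2 in clone 1.14, again without overlap (2.69 ± 0.14). PCDH11X, an X-linked protocadherin (2.79 ± 0.15), and PCDH9 (2.17 ± 0.14), the latter named after its values were seen, rose as well. The giant atypical cadherin FAT3 rose in both clones, by 1.42 in clone 3.3 and 3.69 in clone 1.14, and that difference between clones passed the test (adjusted p = 0.011). CDHR1, a cadherin of photoreceptors (-1.13 ± 0.17), and DCHS1, a ligand of FAT cadherins (-1.04 ± 0.11), fell.

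The clustered protocadherins lie in 3 arrays on chromosome 5, and each promoter of an array can be joined by looping to shared enhancers. Of 20 tested, 5 were called higher and 2 lower, and 4 rose and 1 fell in both clones. PCDHA3 was at 0.911, 1.42 and 1.49 CPM in controls of set A, 3.28, 3.18 and 2.79 in clone 3.3, 2.19, 2.08 and 2.64 in controls of set B and 5.08, 5.98 and 4.45 in clone 1.14, and its log2 fold change was 1.21 ± 0.14. PCDHAC2 at the far end of the alpha array rose by 1.22 ± 0.14, and PCDHA11 between them by 3.48 ± 0.52. These 3 were consecutive tested genes over 211 kb (GRCh37 chr5:140180613-140391932) and each changed in both clones. PCDHB5 of the beta array also rose (1.33 ± 0.08), whereas PCDHGC3 at the end of the gamma array fell (-1.07 ± 0.13). Transcripts of the alpha array share their last exons, as do those of the gamma array. Reads there could be assigned to no single gene, so the values for these 2 arrays rest on the variable first exons. Without replicate 3 of the set B controls, 8 clustered protocadherins were called higher over both clones.

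Among 29 adhesion genes of the immunoglobulin family, 6 rose (20.7%) and 5 fell (17.2%) in both clones, against 3.07% and 3.40% of all genes. CHL1, a relative of L1 that guides axons, was at 22.8, 29 and 38.9 CPM in controls of set A, 105, 113 and 87.7 in clone 3.3, 18.9, 12.5 and 24.2 in controls of set B and 139, 120.1 and 132 in clone 1.14, with the *ΔWAPL* libraries above all controls (2.27 ± 0.21). NRCAM, of the same family, rose (1.77 ± 0.18). L1CAM itself fell (-1.27 ± 0.12), as did ROBO2, a receptor of the repellent SLIT proteins (-1.22 ± 0.12), ALCAM (-1.18 ± 0.14) and IGSF11 (-0.89 ± 0.14). CNTN1, a membrane-anchored contactin, fell by 1.05 on the log2 scale in clone 3.3 and by 3.49 in clone 1.14, a difference between clones that passed the test (adjusted p = 2.61e-04). NCAM2 had the largest rise of the list (4.92 ± 0.17).

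Guidance cues and receptors changed in both directions. Semaphorins are secreted or membrane-bound cues that plexins read. Of 29 genes 3 rose (10.3%) and 2 fell (6.9%) in both clones, against 3.07% and 3.40% of all genes. The secreted repellent SEMA3A was at 6.38, 10.3 and 10.2 CPM in controls of set A, 38.4, 40 and 36.1 in clone 3.3, 7.65, 4.56 and 10.1 in controls of set B and 42.1, 38.8 and 40.8 in clone 1.14 and rose by 2.26 ± 0.16, without overlap. SEMA6C rose (0.54 ± 0.10), and the membrane-bound SEMA4A (-3.34 ± 0.33) and SEMA6A (-1.05 ± 0.08) fell. Of 20 Eph receptors and ephrins, which signal between touching cells, 1 rose and 4 fell. EPHA3 was at 31.2, 38.1 and 39.9 CPM in controls of set A, 11, 12.7 and 9.22 in clone 3.3, 35.1, 24.8 and 39.5 in controls of set B and 14.7, 17.5 and 15.2 in clone 1.14, with every *ΔWAPL* library below every control (-1.39 ± 0.15). EPHA4 (-0.69 ± 0.11) and the ligand EFNA5 (-0.71 ± 0.10), which these receptors bind, fell with it, while EPHB1 of the other receptor class rose (1.19 ± 0.12). The 4 falls in both clones became 2 without replicate 1 of the set B controls or without replicate 2 or 3 of clone 1.14. Among 33 synaptic adhesion genes 3 rose (9.09%) and 2 fell (6.06%) in both clones. NLGN4X, a neuroligin (3.78 ± 0.28), and SLITRK3 (1.38 ± 0.09) rose, and LRRTM3 (-1.62 ± 0.12) and SLITRK2 (-0.91 ± 0.11) fell.

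**Figure D2:**
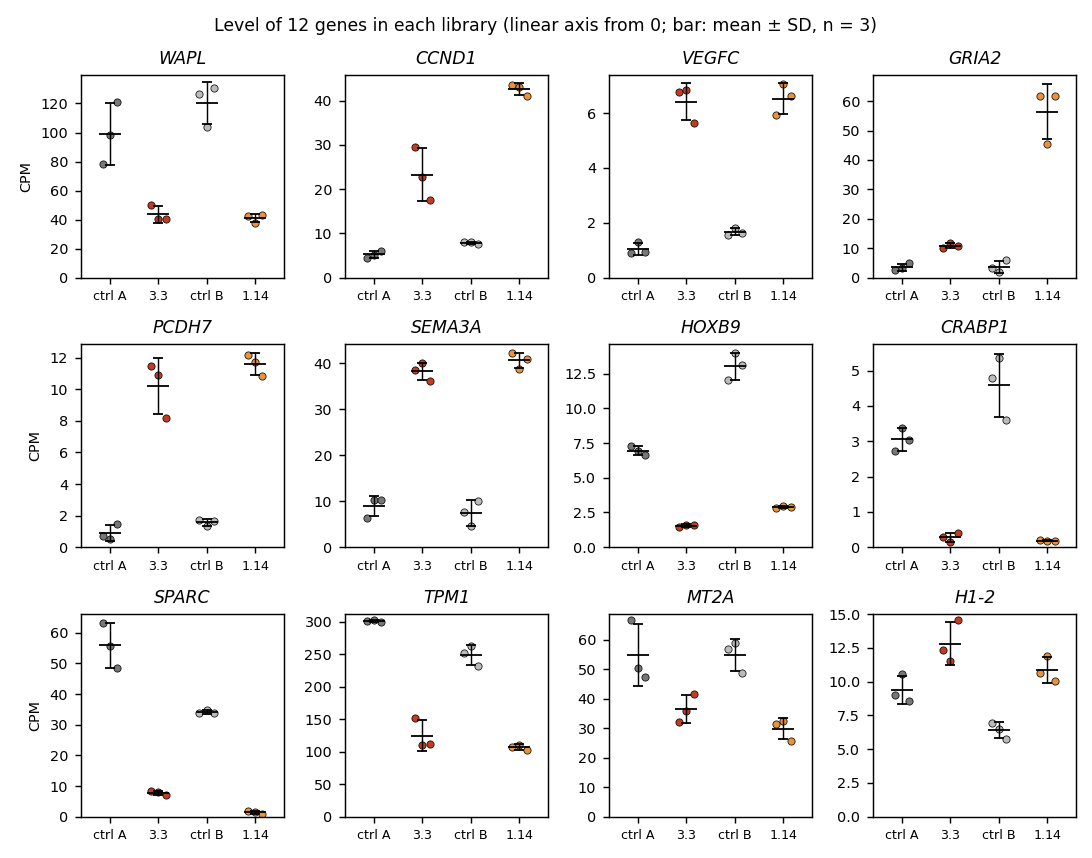
Level (CPM, linear axis from 0) of 12 genes in each of the 12 libraries, by group; points are libraries and bars the mean ± SD of 3. In each gene both clones lie on the same side of their own controls, and in GRIA2 and CCND1 clone 1.14 lies higher than clone 3.3.

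Receptors for neurotransmitters had more rises than falls. Of 23 tested, 6 rose (26.1%) and 2 fell (8.7%) in both clones, against 3.07% and 3.40% of all genes. GRIA2, a subunit of the AMPA-type glutamate receptor, was at 2.47, 3.45 and 4.88 CPM in controls of set A, 10.2, 11.9 and 10.6 in clone 3.3, 3.35, 1.88 and 5.9 in controls of set B and 61.9, 45.5 and 61.8 in clone 1.14, and rose by 1.59 in clone 3.3 and by 3.9 in clone 1.14 (adjusted p of the difference = 0.0081). The metabotropic glutamate receptor GRM4 (3.32 ± 0.25) and the muscarinic receptor CHRM3 (2.21 ± 0.14) rose. Named after their values were seen, GRM8 (1.77 ± 0.12), the kainate receptor subunit GRIK4 (0.80 ± 0.10) and the glycine receptor subunit GLRB (0.85 ± 0.11) make up the other risers. GABRA5, a GABA receptor subunit, fell by 0.53 in clone 3.3 and by 6.08 in clone 1.14, and the kainate receptor subunit GRIK2 fell by 0.99 over both. The summed level of the 6 neuronal markers was 3.43 to 3.88 CPM in clone 3.3, below the 14.7 to 20.1 CPM of its controls, and 12.6 to 13.3 CPM in clone 1.14 against 11 to 16.2 CPM. Of those 6, 2 passed the filter and both were called lower over both clones, 4 were below 1 CPM throughout and ELAVL4 had no read. Whether these markers had a part in the receptor changes was not tested.

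Ion channels and vesicle genes were split. Of 24 sodium, calcium and related channel genes, 2 rose (8.33%) and 3 fell (12.5%) in both clones, against 3.07% and 3.40% of all genes. SCN4B, an auxiliary sodium channel subunit, rose (1.17 ± 0.10). The pore-forming SCN9A (-2.25 ± 0.23) and the calcium channel subunit CACNA2D2 (-0.52 ± 0.08) fell. Of 42 potassium channel genes 3 rose (7.14%) and 3 fell (7.14%) in both clones. KCNK13, a leak channel (1.14 ± 0.19), KCNJ8, an inward rectifier (1.6 ± 0.25), and KCNMB2, an auxiliary subunit (1.89 ± 0.30), were among those that changed, as was KCND2, which carries a fast inactivating current (-2.36 ± 0.29). Potassium channels called higher over both clones numbered 6, and 3 without replicate 2 or 3 of the set B controls or replicate 1 or 3 of clone 1.14; 1 rose in both clones without replicate 1 of the set B controls. Of 30 synaptic vesicle genes 3 rose (10.0%) and 4 fell (13.3%) in both clones. RIMS2, a scaffold of release sites (1.4 ± 0.11), the calcium sensor SYT7 (0.79 ± 0.12) and SYN3, a synapsin (0.49 ± 0.08), rose, and the synaptotagmins SYT6 (-2.01 ± 0.18) and SYT11 (-1.01 ± 0.09) fell. Those falls in both clones numbered 2 without replicate 1 or 2 of the set B controls, any replicate of clone 1.14 or the 2 controls that stood apart, and the 8 vesicle genes called lower over both clones became 5 without replicate 2 of the set A controls or of clone 3.3.

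Receptor tyrosine kinases and their ligands rose more often than they fell. Of 35 tested, 9 (25.7%) were called higher and 5 (14.3%) lower over both clones, against 8.56% and 9.13% of all genes. In both clones 8 rose (22.9% against 3.07%) and 2 fell (5.71% against 3.40%). Among ligands, VEGFC, which drives growth of lymphatic vessels, was at 0.911, 1.29 and 0.952 CPM in controls of set A, 6.76, 6.85 and 5.64 in clone 3.3, 1.57, 1.81 and 1.63 in controls of set B and 5.93, 7.05 and 6.62 in clone 1.14. No *ΔWAPL* library overlapped a control (2.26 ± 0.15). EGF rose by 2.27 ± 0.15. PTN, pleiotrophin, had only 6 reads summed over the control libraries and 540 over the *ΔWAPL* libraries. Among receptors, NTRK3, which binds neurotrophin 3, rose by 2.94 ± 0.38. Further members, named after their values were seen, included matching ligand and receptor pairs: FLT4, the receptor of VEGFC (0.63 ± 0.08), and PDGFRA (1.47 ± 0.12) together with PDGFC, 1 of its ligands (0.87 ± 0.09). PDGFRA was at 9.04, 14.1 and 13.9 CPM in controls of set A, 38.3, 42.1 and 34.3 in clone 3.3, 20.1, 19.1 and 24.6 in controls of set B and 53.1, 48.9 and 56.8 in clone 1.14. GAS6, a ligand of the AXL family, rose by 0.45 ± 0.09. FLT1, which binds other VEGF forms (-1.12 ± 0.15), and ERBB3, a neuregulin receptor (-0.72 ± 0.10), fell.

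Genes that growth factor signalling through ERK is known to induce, many of which feed back on that pathway, rose more often than they fell. Of 26 tested, 7 (26.9%) were called higher and 4 (15.4%) lower over both clones, against 8.56% and 9.13% of all genes. In both clones 6 rose (23.1% against 3.07%) and none fell. CCND1, cyclin D1, was at 4.55, 5.17 and 6.13 CPM in controls of set A, 29.4, 22.7 and 17.6 in clone 3.3, 7.99, 7.99 and 7.59 in controls of set B and 43.6, 43 and 41.1 in clone 1.14. Its libraries did not overlap, and the log2 fold change was 2.3 ± 0.12, with 2.14 in clone 3.3 and 2.44 in clone 1.14. ETV1, an ETS transcription factor, was at 1.89, 2.4 and 2.8 CPM in controls of set A, 9.95, 10.2 and 10.7 in clone 3.3, 3.01, 3.15 and 4.22 in controls of set B and 14.7, 14.3 and 14.8 in clone 1.14 (2.09 ± 0.11). The immediate-early factor EGR2 (1.96 ± 0.16) and SPRY1, a Sprouty inhibitor of the pathway (1.06 ± 0.13), also rose, and so did, named after their values were seen, the ERK phosphatase DUSP4 (0.90 ± 0.14) and ETV5 (0.89 ± 0.16). The 4 genes called lower over both clones, named after their values were seen, were MYC (-0.26 ± 0.06), JUN (-0.60 ± 0.12), IER2 (-0.29 ± 0.07) and PHLDA1 (-0.45 ± 0.13), and none of these passed in both clones taken separately. IER2 and PHLDA1 did with the GC offset, so that 2 of the 26 fell in both clones.

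Of 48 G protein-coupled and adhesion receptors, 5 rose (10.4%) and 2 fell (4.17%) in both clones, against 3.07% and 3.40% of all genes. LPAR1 (2.28 ± 0.24) and LPAR4 (1.84 ± 0.20), receptors of lysophosphatidic acid, and ADGRG6 (1.54 ± 0.20), an adhesion receptor needed for myelination, rose, and ADGRG2 (-2.68 ± 0.28) and the orphan receptor GPR19 (-1.49 ± 0.22) fell. RGS proteins shorten G protein signals. Of 11 tested, counted apart after their values were seen, 3 were called higher and 3 lower over both clones. Over all genes these shares were 8.56% and 9.13%. In both clones 3 rose and 1 fell. These were RGS2 (1.35 ± 0.09), RGS7 (2.48 ± 0.36) and RGS20 (1.37 ± 0.13), which rose, and RGS14 (-2.22 ± 0.18), which fell. TIAM1, an activator of Rac, fell by 2.52 on the log2 scale in clone 3.3 and by 6.35 in clone 1.14.

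Retinoid genes fell more often than they rose. Retinoic acid is made from vitamin A by retinaldehyde dehydrogenases and carried in the cell by CRABP proteins. Of 15 genes tested, 1 (6.67%) was called higher and 6 (40.0%) lower over both clones, against 8.56% and 9.13% of all genes. In both clones 4 fell (26.7% against 3.40%). The carrier CRABP1 was at 2.73, 3.38 and 3.03 CPM in controls of set A, 0.298, 0.141 and 0.398 in clone 3.3, 4.78, 5.37 and 3.6 in controls of set B and 0.212, 0.178 and 0.18 in clone 1.14. Every *ΔWAPL* library was below every control, and the log2 fold change was -3.96 ± 0.24. CRABP2, named after its values were seen, fell by 1.54 ± 0.09. STRA6, through which cells take up retinol, was at 8.85, 8.25 and 7.62 CPM in controls of set A, 2.64, 2.47 and 2.92 in clone 3.3, 5.53, 5.77 and 6.35 in controls of set B and 2.17, 1.12 and 1.14 in clone 1.14 (-1.78 ± 0.15). The enzyme ALDH1A2 was at 13.1, 13.2 and 12.4 CPM in controls of set A, 4.72, 3.39 and 4.24 in clone 3.3, 33.6, 32.7 and 32.9 in controls of set B and 3.81, 4.32 and 5.17 in clone 1.14 and fell in both clones (-2.3 ± 0.20), with -1.64 in clone 3.3 and -2.9 in clone 1.14. The riser was ALDH1A1, another retinaldehyde dehydrogenase, at 0.195, 0.308 and 0.297 CPM in controls of set A, 2.09, 2.47 and 2.19 in clone 3.3, 0.341, 0.336 and 0.281 in controls of set B and 1.01, 1.36 and 1.56 in clone 1.14 (2.55 ± 0.23).

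Targets of the coactivators YAP and TAZ and of SRF, which respond to cell contact, tension and actin, fell more often than they rose. Of 19, 1 (5.26%) was called higher and 7 (36.8%) lower over both clones, against 8.56% and 9.13% of all genes. In both clones none rose and 5 fell (26.3% against 3.40%), and the list median was -0.231. TPM1, a tropomyosin of actin filaments, was at 301, 303 and 299 CPM in controls of set A, 152, 110.3 and 111 in clone 3.3, 252, 263 and 233 in controls of set B and 107, 111 and 102 in clone 1.14. All *ΔWAPL* libraries were below all controls (-1.25 ± 0.08). CCN2, a secreted matricellular protein, fell by 0.67 ± 0.13, F3, tissue factor, by 1.26 ± 0.19, and AMOTL2, a junctional protein that binds YAP, by 0.54 ± 0.07. The falls in both clones numbered 2 without replicate 2 of the set A controls or replicate 3 of clone 3.3, and 3 without replicate 2 of clone 3.3, replicate 1 or 2 of the set B controls, replicate 2 or 3 of clone 1.14, or the 2 controls that stood apart.

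Transcription factors of development changed in both directions, but no HOX gene rose in both clones. Of 27 HOX genes tested, 2 (7.41%) were called higher and 7 (25.9%) lower over both clones, against 8.56% and 9.13% of all genes. In both clones none rose while 5 fell (18.5% against 3.40%). In the fit with the GC offset 1 rose in both clones. HOXB9 was at 7.29, 6.95 and 6.6 CPM in controls of set A, 1.44, 1.62 and 1.59 in clone 3.3, 12, 14 and 13.1 in controls of set B and 2.81, 2.96 and 2.89 in clone 1.14, without overlap (-2.17 ± 0.09, edgeR adjusted p = 8.76e-10), with -2.16 in clone 3.3 and -2.17 in clone 1.14. HOXB6 (-1.46 ± 0.24), HOXC11 (-1.31 ± 0.17) and HOXD13 (-0.86 ± 0.08) fell, as did HOXD8 (-0.43 ± 0.09), named after its values were seen. HOXB4, HOXB6, HOXB9, HOXB13 and the adjacent TTLL6 were consecutive tested genes and each was called lower over both clones, a run across 242 kb of chromosome 17 (GRCh37 chr17:46652869-46894591). In the HOXD array, HOXD10 (1.52 ± 0.46) and HOXD11 (0.77 ± 0.18) were the genes called higher (named after their values were seen), with no pass in both clones, in the array that holds the falling HOXD8 and HOXD13. Falls in both clones numbered 3 without replicate 2 of the set B controls or replicate 1 or 3 of clone 1.14.

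Of 28 bHLH differentiation factors and inhibitors, 3 rose (10.7%) and 5 fell (17.9%) in both clones, against 3.07% and 3.40% of all genes. OLIG1, a factor of oligodendrocyte precursors, was at 8.26, 7.2 and 6.43 CPM in controls of set A, 0.845, 0.777 and 0.796 in clone 3.3, 5.46, 5.3 and 4.78 in controls of set B and 0.476, 0.474 and 0.301 in clone 1.14 (-3.34 ± 0.15). OLIG2, its neighbour on chromosome 21, fell by 1.12 ± 0.10, and NEUROG2, a proneural factor, by 0.94 ± 0.13. Both were named after their values were seen. TCF24 fell as well (-1.56 ± 0.23). TWIST1, which promotes mesenchymal states (1.41 ± 0.08), BHLHE41, a repressor of the circadian clock (1.55 ± 0.18), and HAND2, of heart and neural crest (1.07 ± 0.13), rose. Of 37 GATA, T-box and KLF factors, 4 rose (10.8%) and 3 fell (8.11%) in both clones. TBX18 had 176 reads over the 6 control libraries and 0 over the 6 *ΔWAPL* libraries, a level at least 62.3-fold lower against a floor of 3 reads over the group. KLF4, a pluripotency factor, fell by 1.54 in clone 3.3 and by 2.8 in clone 1.14. KLF13 fell by 0.67 ± 0.06, and GATA6, a factor of endoderm (1.18 ± 0.14), and EOMES, of mesoderm and endoderm (1.16 ± 0.18), rose. Among 82 other homeobox genes, 5 rose (6.1%) and 4 fell (4.88%) in both clones, nearer to the shares of all genes. ALX4 (-1.96 ± 0.29), CUX2 (-0.89 ± 0.15) and DLX4 (-0.38 ± 0.07) fell, and ALX1 (0.80 ± 0.13), a relative of ALX4, rose. The homeobox counts were loose: 2 or 3 rose in both clones when any of 9 libraries was left out (every library of either clone, replicates 1 and 2 of the set A controls and replicate 2 of the set B controls) and 2 without the 2 controls that stood apart, and 2 fell without replicate 1 of the set A controls, replicate 1 or 2 of clone 3.3, replicate 1 of the set B controls or replicate 1 or 2 of clone 1.14. The GATA, T-box and KLF falls numbered 5 without replicate 1 of the set A controls, and 11 bHLH factors were called lower over both clones without replicate 3 of the set A controls.

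Zinc-finger genes of chromosome 19, most of them in arrays and many known as KRAB repressors of transposable elements, changed in both directions. Of 211 tested, 28 (13.3%) were called higher and 24 (11.4%) lower over both clones, against 8.56% and 9.13% of all genes. The list median was 0.137, but 5 rose and 13 fell in both clones (2.37% and 6.16%, against 3.07% and 3.40% of all genes). Without the 2 controls that stood apart, 15 were called higher and 28 lower over both clones and the median was 0.05. Leaving out 1 library at a time, those called higher numbered 50 without replicate 3 of the set A controls, 16 to 18 without replicate 1 of clone 3.3, replicate 1 of the set B controls or replicate 1 or 3 of clone 1.14, and 3 rose in both clones without replicate 1 of the controls of either set or replicate 1 or 3 of clone 1.14. With the GC offset 22 fell in both clones, and with at least 10 reads required in every library 0 did, since that filter removes genes lost from the *ΔWAPL* libraries. Many of the genes that fell lay together. ZNF43, ZNF208, ZNF257, ZNF676 and ZNF729, consecutive tested genes over 512 kb (GRCh37 chr19:21987752-22499978), were each called lower. ZNF676 had 231 reads over the control libraries and 0 over the *ΔWAPL* libraries (at least 81.8-fold lower), ZNF729 had 158 and 0, ZNF208 119 and 0, and ZNF43 225 and 6. A nearby run of ZNF90, ZNF486, ZNF737 and ZNF714 over 1120 kb also fell, and ZNF486 went from 418 reads to 3, a ratio of 148 (95% Poisson interval 50.3 to 721, counting error only). Away from that array ZNF256 fell by 2.43 in clone 3.3 and 5.54 in clone 1.14 (adjusted p of the difference = 2.86e-04). ZNF440 (1.5 ± 0.18), ZNF606 (0.78 ± 0.14), ZNF442 (0.92 ± 0.14), ZNF563 (1.0 ± 0.18) and ZNF878 (2.3 ± 0.34) rose. These genes are near-identical in stretches, and reads that match several copies were not counted.

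**Figure D3:**
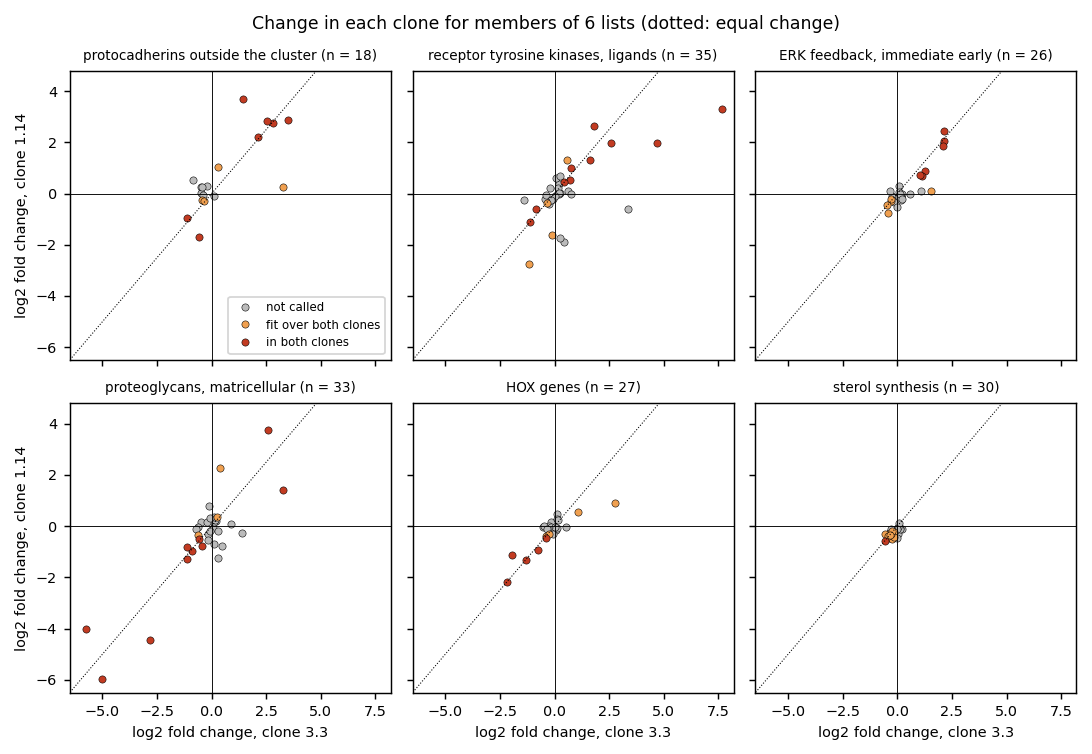
Log2 fold change in clone 1.14 (vertical axis) against that in clone 3.3 (horizontal axis) for the tested members of 6 lists; red points changed in both clones, orange points were called over both clones only, and the dotted line marks equal change. Sterol synthesis genes cluster just below 0 in both clones, whereas protocadherins, growth factor receptors and matrix genes spread widely.

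Matrix genes moved in both directions, and proteoglycans and matrix proteins had more falls than rises. Of those 33 genes, 2 rose (6.06% against 3.07% of all genes) and 8 fell (24.2% against 3.40%) in both clones. Of 23 collagen chains, 2 rose and 1 fell, and the same counts held for 21 laminin and basement membrane genes and for 8 serpins. SPARC, a collagen-binding matricellular protein, was at 63.1, 55.8 and 48.6 CPM in controls of set A, 8.25, 8.19 and 6.96 in clone 3.3, 33.9, 34.9 and 33.7 in controls of set B and 1.96, 1.6 and 1.02 in clone 1.14. The log2 fold change was -3.48 ± 0.24, with -2.84 in clone 3.3 and -4.47 in clone 1.14. MFAP2, a component of elastic microfibrils, was at 8.0, 6.52 and 6.01 CPM in controls of set A, 0.0995, 0.424 and 0.133 in clone 3.3, 5.4, 5.03 and 5.28 in controls of set B and 0.0529, 0 and 0.18 in clone 1.14 (-5.37 ± 0.28). The glypicans GPC3 (-0.54 ± 0.06) and GPC4 (-0.93 ± 0.07), heparan sulphate carriers that bind growth factors, and THBS2, a thrombospondin (-1.21 ± 0.09), fell (named after their values were seen). In controls GPC3 averaged 869 CPM in set A and 680.0 CPM in set B. RELN, a large secreted guide of neuronal migration (-4.64 ± 0.24), fell, while SPOCK3 (3.19 ± 0.22) and GPC5 (2.11 ± 0.28) rose. Of 46 proteases and inhibitors 6 rose (13.0%) and 3 fell (6.52%) in both clones. MMP2, a gelatinase (2.21 ± 0.16), and TLL1, a procollagen-processing enzyme (4.34 ± 0.15), rose. MMP24 (-1.86 ± 0.14), PLAUR, the urokinase receptor (-1.53 ± 0.17), and the inhibitor TIMP3 (-1.14 ± 0.11) fell.

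Actin, myosin and muscle protein genes fell more often than they rose. Of 48 tested, 3 (6.25%) were called higher and 15 (31.2%) lower over both clones, against 8.56% and 9.13% of all genes. In both clones 1 rose (2.08% against 3.07%) and 8 fell (16.7% against 3.40%), and the list median was -0.186. ACTG2, smooth muscle actin, was at 121, 103 and 82.8 CPM in controls of set A, 54.9, 59.7 and 62.1 in clone 3.3, 68, 70.1 and 59.4 in controls of set B and 37.8, 39.8 and 34.9 in clone 1.14 (-0.80 ± 0.09). Vinculin (VCL), which ties actin to adhesion sites, fell by 0.29 ± 0.05, the myosin light chain MYL12A by 0.46 ± 0.07, and MYO1E by 0.46 ± 0.06. These 4 were named after their values were seen. The largest falls by the naming rule were in ACTL8 (-3.91 ± 0.23), the troponin TNNI3 (-1.77 ± 0.26) and MYO1D (-0.81 ± 0.09), and MYO7A, a myosin of hair cells, rose (2.29 ± 0.40). Without replicate 3 of the set A controls, 5 were called higher over both clones. Tubulin and microtubule genes had 3 called higher (11.1%) and 9 lower (33.3%) over both clones among 27. Of these, 2 fell in both clones (7.41%): TUBA1A (-1.33 ± 0.08) and MAP6 (-0.65 ± 0.08), named after their values were seen. EPCAM (-2.72 ± 0.35) and KRT8 (-1.62 ± 0.17), 2 of the 3 epithelial markers that passed the filter, fell in both clones (named after their values were seen). The summed level of the 6 epithelial markers spanned 58.3 to 82.3 CPM in controls of set A and 60 to 66.3 in clone 3.3, and 57.0 to 72.5 in controls of set B against 42.0 to 47.7 in clone 1.14. Their part in the cytoskeletal changes was not tested.

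All 5 metallothioneins that could be tested, of 11, were called lower over both clones, and 3 fell in both. These small cysteine-rich proteins bind zinc and copper, and their genes stand side by side on chromosome 16. MT2A was at 66.8, 50.5 and 47.2 CPM in controls of set A, 32, 36 and 41.6 in clone 3.3, 57, 58.9 and 48.6 in controls of set B and 31.4, 32.6 and 25.7 in clone 1.14. MT1X was at 12.3, 10.6 and 8.69 CPM in controls of set A, 7.81, 7.62 and 7.23 in clone 3.3, 9.9, 9.39 and 8.09 in controls of set B and 5.61, 5.92 and 5.11 in clone 1.14. MT1E was at 61.9, 58.8 and 48.9 CPM in controls of set A, 42.3, 38.8 and 38.1 in clone 3.3, 51.8, 54.2 and 43.2 in controls of set B and 28.1, 28.4 and 24.1 in clone 1.14. For all 3 every *ΔWAPL* library was below every control of its set. The log2 fold changes were -0.73 ± 0.11 for MT2A, -0.70 ± 0.10 for MT1E and -0.59 ± 0.10 for MT1X, which changed in both clones, and -1.26 ± 0.39 for MT1M and -0.61 ± 0.15 for MT1F, which were called over both clones but not in each. Without the 2 controls that stood apart, 4 of the 5 were called. The 3 falls in both clones became 1 without replicate 1 or 2 of the set A controls or replicate 1 of clone 3.3, and 0 without replicate 2 of clone 3.3. Together they formed a run of 5 consecutive tested genes over 75.6 kb (GRCh37 chr16:56642496-56718108). The copies resemble each other, so reads shared between them could be lost or misassigned.

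The zinc-sensing factor MTF1 induces these genes through the metal response element, and promoters are shown here because the run moved together. The core TGCACNC or TGCGCNC was searched on both strands of 300 bases (250 before and 50 after the start site) of RefSeq promoters of GRCh38.p14. It was found at least once in 29.6% of 35116 promoters, at least 2 times in 8.6% and at least 4 times in 0.601%. Of the 5 tested metallothioneins, 2 had a promoter in the table, MT2A with 8 matches (chr16:56608334-56608633, plus strand) and MT1X with 4 (chr16:56682220-56682519, plus strand). Matches, in capitals, describe letters only.
MT2A promoter: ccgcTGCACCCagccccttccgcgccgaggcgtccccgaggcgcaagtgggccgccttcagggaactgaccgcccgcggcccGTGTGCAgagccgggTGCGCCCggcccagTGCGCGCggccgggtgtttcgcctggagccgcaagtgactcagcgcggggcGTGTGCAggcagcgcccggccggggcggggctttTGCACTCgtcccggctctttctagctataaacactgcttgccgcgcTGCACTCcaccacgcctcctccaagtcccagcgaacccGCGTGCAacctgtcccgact
MT1X promoter: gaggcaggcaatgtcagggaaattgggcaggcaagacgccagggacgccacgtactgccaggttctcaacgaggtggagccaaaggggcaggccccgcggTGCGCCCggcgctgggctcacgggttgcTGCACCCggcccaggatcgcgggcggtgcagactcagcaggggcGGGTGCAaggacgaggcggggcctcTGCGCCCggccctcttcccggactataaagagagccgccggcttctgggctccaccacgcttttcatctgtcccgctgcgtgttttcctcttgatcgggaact

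Histone genes, of which 23 of 50 had enough polyadenylated reads to be tested, were called higher in 9 cases and lower in none. Those called higher made up 39.1%, against 8.56% of all genes. In both clones 3 rose (13.0% against 3.07%), and the list median was 0.382. H1-2, a linker histone, was at 8.98, 10.6 and 8.57 CPM in controls of set A, 12.3, 11.5 and 14.6 in clone 3.3, 6.97, 6.51 and 5.79 in controls of set B and 10.6, 11.9 and 10 in clone 1.14 (0.60 ± 0.10). H2BC15 (0.97 ± 0.14) and MACROH2A2, a variant of repressed chromatin (1.45 ± 0.16), rose too, the latter by 0.97 in clone 3.3 and 1.88 in clone 1.14. H1-2, H2BC4 and H2AC6 were consecutive tested genes on chromosome 6. Most histone messages lack a poly(A) tail, and poly(A) selection keeps only some of them. With the GC offset, 12 were called higher and 1 lower.

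Sterol and fatty acid synthesis genes were lower together, by small amounts: of 30, 15 were called lower and none higher over both clones, with a list median of -0.225, but only SCD, which desaturates fatty acids, fell in both clones. SCD was at 1101, 1030.0 and 1094 CPM in controls of set A, 753, 742 and 699 in clone 3.3, 1260.0, 1352 and 1238 in controls of set B and 847, 847 and 861 in clone 1.14 (-0.57 ± 0.05). HMGCS1, an early enzyme of the sterol pathway named after its values were seen, was called over both clones but not in each (-0.42 ± 0.09). With the GC offset, 18 were called lower and 8 fell in both clones. Of all genes, 12.5% were called lower and 5.0% fell in both clones in that fit.

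Forkhead factors gave 0 higher and 6 lower (22.2% against 9.13% of all genes) over both clones among 27, and none changed in both. In both clones 3 fell with the GC offset, and without the 2 controls 1 did. Of 34 interferon-induced genes, 3 rose (8.82% against 3.07% of all genes) and 2 fell (5.88% against 3.40%) in both clones. The risers were SAMD9 (2.18 ± 0.29), DDX60 (1.38 ± 0.19) and IFIT1 (0.58 ± 0.09). The antiviral membrane protein IFITM1 (-1.93 ± 0.19) and STAT2, a factor that carries the interferon signal (-0.49 ± 0.07), fell. Solute carriers, 143 in all, gave 5 rises (3.5% against 3.07% of all genes) and 8 falls (5.59% against 3.40%) in both clones, close to the shares over all genes. SLCO4C1 (2.66 ± 0.16), the inositol carrier SLC2A13 (1.07 ± 0.17), the zinc carrier SLC39A8 (0.79 ± 0.09), SLC1A6, a glutamate carrier (0.59 ± 0.08), and SLC38A6 (0.57 ± 0.10) rose. The fructose carrier SLC2A5 (-2.07 ± 0.12) and the amino acid carriers SLC7A8 (-1.58 ± 0.22) and SLC7A3 (-1.07 ± 0.09) fell. The solute carriers that rose numbered 3 without replicate 2 of clone 3.3 or replicate 3 of clone 1.14. Of 59 redox and aldehyde-metabolising genes, 3 rose (5.08%) and 4 fell (6.78%) in both clones. Among them CYP1B1 (1.76 ± 0.20) and NQO1 (0.73 ± 0.09) rose and ALDH7A1 (-1.13 ± 0.09) fell.

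**Figure D4:**
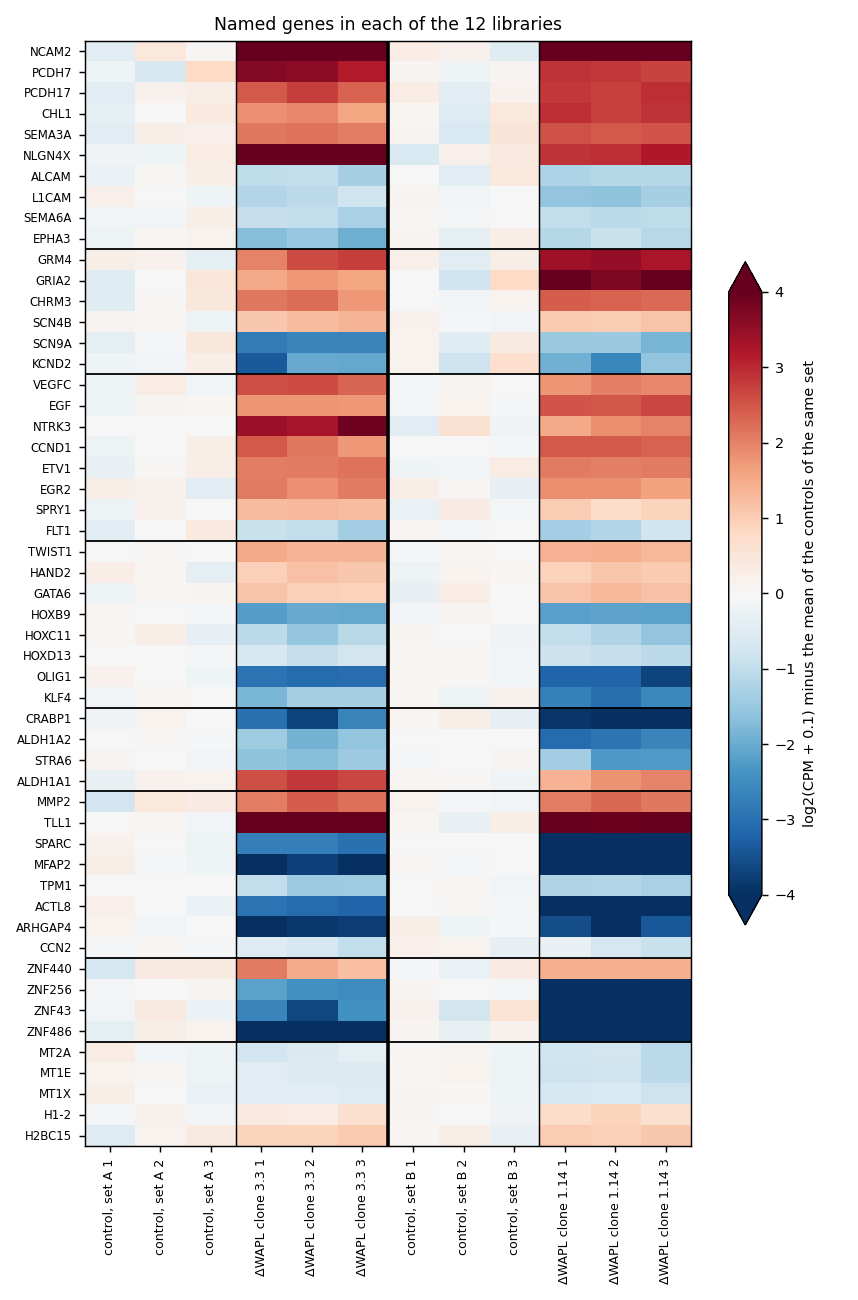
Log2(CPM + 0.1) of named genes in each library minus the mean of the controls of its set, with colours saturating at -4 and 4; columns are libraries by group, and rows are genes grouped by the lists they belong to. In each row the libraries of both clones have the same sign, with some rows, such as ZNF256 and ALDH1A2, deeper in clone 1.14.

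Outside the lists, the largest falls among well-counted genes changed in both clones included MEIOB, a gene of meiotic recombination, with 423 control reads and 3 *ΔWAPL* reads (ratio 149.8, 95% Poisson interval 50.9 to 729), the transketolase-like TKTL1 (782 and 7 reads), and IRF8, a factor of myeloid cells (-4.66 ± 0.23). SLC12A3, the sodium chloride carrier of the kidney (-4.55 ± 0.27), POF1B (-4.14 ± 0.27) and AMBN, of tooth enamel (-6.29 ± 0.29), fell as well. The largest rises included the phosphodiesterase PDE3A (6 control and 384 *ΔWAPL* reads), JAKMIP3 (4.25 ± 0.23), CPPED1 (4.1 ± 0.17), the natriuretic peptide clearance receptor NPR3 (4.05 ± 0.21), RFTN1 (3.86 ± 0.20) and LRRC7 (3.53 ± 0.16). Among genes named after their values were seen, those that fell in both clones included LIN28A, which blocks maturation of let-7 (249 control and 2 *ΔWAPL* reads, ratio 132 with a 95% Poisson interval of 36.2 to 1098), ZFP42 (101 and 2 reads, ratio 53.7, 14.5 to 449) and DNMT3L, a partner of de novo DNA methylation (133 and 1 reads, ratio 141, 24.9 to 5623). HBB, beta-globin, had no control read and 266 reads in *ΔWAPL* cells, at least 83.4-fold higher.

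Genes that changed stood next to each other in places. Among 12047 pairs of neighbouring tested genes no more than 1 Mb apart, both were called over both clones in 500, and in 382 of these (76.4%) the direction was the same. The share among genes that are not neighbours was not computed. Pairs include overlapping genes, such as FPGT-TNNI3K and FPGT. Runs of 3 or more consecutive tested genes, each called in 1 direction with the same sign in each clone, numbered 56: 36 of higher and 20 of lower genes, holding 131 and 71 genes on 21 chromosomes. Of these, 36 had 3 genes and the longest had 6. The number of runs was 101 without replicate 3 of the set A controls and 37 without replicate 3 of clone 1.14, and 5 where each gene also had to pass in each clone. In 2 runs every gene had changed in both clones. These were the 3 alpha protocadherins above and CPE, TLL1 and SPOCK3 on chromosome 4 (GRCh37 chr4:166282346-168155947, 1870 kb). CPE, carboxypeptidase E of secretory granules, was at 36.5, 50.8 and 50.8 CPM in controls of set A, 137, 114 and 102 in clone 3.3, 47.3, 49.2 and 49.3 in controls of set B and 133, 141 and 137 in clone 1.14 (1.42 ± 0.10).

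Other runs of 4 or more genes joined members of different families. On chromosome 4, PDGFC, GLRB, GRIA2, GASK1B, TMEM144 and C4orf46 rose over 1910 kb, so a growth factor and receptor subunits of glutamate and glycine receptors stood in the same run. LYAR, ZBTB49, NSG1, STX18, MSX1 and STK32B rose over 1230 kb of the same chromosome, and FAM241A, AP1AR, TIFA and ALPK1 over 297 kb. On chromosome 10 the runs were IPMK, CISD1, UBE2D1, TFAM, BICC1 and FAM13C over 1170 kb and RTKN2, ZNF365, ADO and EGR2 over 636 kb. Upward runs on further chromosomes were SP8, SP4, DNAH11, CDCA7L and RAPGEF5 on chromosome 7, CPNE8, KIF21A, ABCD2, SLC2A13 and LRRK2 on chromosome 12, FRMD6, GNG2, RTRAF, NID2 and TXNDC16 on chromosome 14, NFE2L2, AGPS, TTC30B, TTC30A and PDE11A on chromosome 2, RNF138, GAREM1, KLHL14 and ASXL3 on chromosome 18, and XK, CYBB, DYNLT3 and SRPX on chromosome X. On chromosome 7, ABCB1, RUNDC3B, SLC25A40 and DBF4 rose, although SLC25A40 did not do so with the GC offset. On chromosome 6, the neighbours ZNF322, H2BC11, H2AC11 and H2BC12 rose, H2BC11 by 1.3 in clone 3.3 and 0.30 in clone 1.14 (adjusted p of the difference = 0.029). Downward runs included NUAK2, KLHDC8A, CDK18 and MFSD4A on chromosome 1, APPL2, C12orf75, NUAK1, CKAP4 and TCP11L2 on chromosome 12, and RIPK1, BPHL, TUBB2A and TUBB2B on chromosome 6. All genes of a run were also called with the GC offset in 40 runs and without the 2 controls in 29. With the offset, 4 of 6 genes were called in the runs of PDGFC and IPMK and 3 of 5 in that of FRMD6. It was 4 of 5 for NFE2L2, and 3 of 4 for FAM241A, ABCB1 and ZNF322. Without the 2 controls, 2 of 4 were called in the runs of ABCB1, RTKN2 and ZNF322 and 3 of 4 in that of FAM241A. It was 4 of 5 for SP8, CPNE8 and FRMD6 and 5 of 6 for LYAR.

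**Figure D5:**
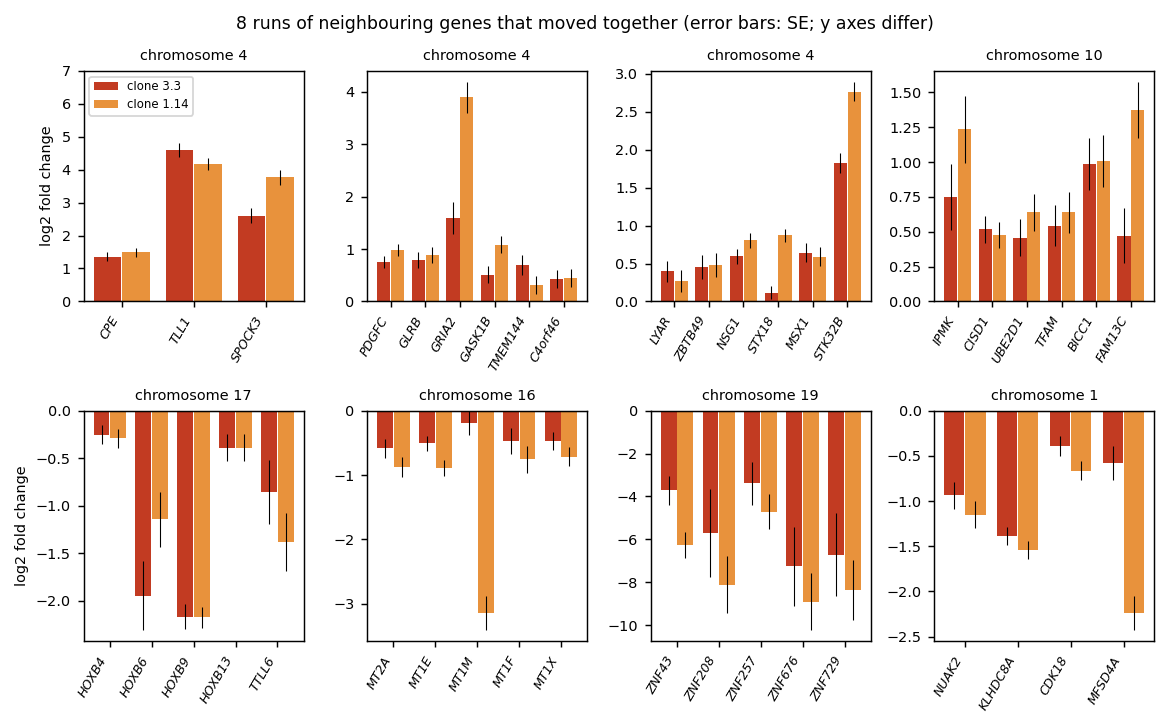
Log2 fold changes of the genes in 8 runs of neighbouring genes, ordered by position, in clone 3.3 and clone 1.14; error bars are SE and the vertical axes differ. Bars of both clones point in the same direction within each run, and their heights differ between neighbours, as in MT1M and GRIA2. For ZNF208, ZNF676 and ZNF729, with no *ΔWAPL* read, the height depends on the prior count of the fit.

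A larger share of genes was higher on chromosome 4 than on any other of chromosomes 1 to 22 and X. Of its 471 tested genes 22.1% were called higher over both clones, against 8.56% of all genes, and 8.49% rose in both clones against 3.07%. The shares for falls were 7.22% and 2.34%. With the GC offset 20.4% were called higher, where the share of all genes was 11.8%, and without the 2 controls 17.6% against 7.08%. The median log2 fold change on the chromosome was 0.118 in clone 3.3 and 0.152 in clone 1.14, and 0.046 over both with the offset. Its 40 genes that rose in both clones included many named above: the protocadherin PCDH7, the growth factors EGF, VEGFC and PDGFC, the receptor PDGFRA, the feedback inhibitor SPRY1, the receptor subunits GRIA2 and GLRB, the matrix genes TLL1 and SPOCK3, the carrier SLC39A8, DDX60 and HAND2. Their rise thus appears in the counts of those lists and in that of the chromosome. Chromosomes 18 (15.5% higher over both clones) and 13 (12.6%) came next, and chromosome 20, with 2.47%, had no gene that rose in both clones.

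Genes that rose in both clones were long. Their median span from first to last annotated base was 102 kb, against 43.3 kb for genes that fell in both clones and 34.8 kb for all tested genes. Spans over 200 kb made up 29.8%, 13.6% and 8.37%. In the longest of 5 equal bins of span (median 178 kb), 7.56% rose and 4.83% fell in both clones, and 9.93% and 7% with the GC offset. The changed genes were also less abundant, with median average log2 CPM of 2.90 and 3.12 against 5.11 for all genes. GC content of the gene span moved with the calls. In the lowest of 5 bins (median 37.5%) 16.7% were called higher and 4.55% lower over both clones, and in the next to highest bin 4.15% and 13.6%. With the offset, which used exon GC content, these became 14.3% and 12.3%, and 11.1% and 12.7%. Of all tested genes, 12.5% were then called lower over both clones, and 4.84% rose and 5% fell in both. With the offset, rises in both clones numbered 5 for synaptic adhesion genes, histones and aldehyde-metabolising genes, 8 for solute carriers, and 9 for homeobox genes, and 5 falls were found among GATA, T-box and KLF factors and among proteases.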

How the data were processed

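HAP1 RNA was extracted with TRIzol and sequenced from strand-specific, poly(A)-selected libraries. The authors aligned reads to hg19 with TopHat2 and counted them per gene with HTSeq, and the deposited values are raw counts (the submitters' processing notes also list DESeq2 1.10.1). Of 20329 gene rows, 96.6% were found in the annotation used for positions, that of GRCh37. Rows that name no gene were left out of totals. Reads without a feature amounted to 4.04 to 5.12%, ambiguous ones to 1.47 to 1.71% and non-unique ones to 14.3 to 16.06%. These are shares of reads on genes and in such rows together. The depth of 14212412 to 20711127 reads on genes sets the precision, and counting intervals (95%) and the floor of 3 reads cover counting error only.

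The 12 samples were grouped by title. The set of each clone was read from the sequencing request in the file names, because the labels state it for controls only. Counts were filtered with filterByExpr, scaled by TMM and fitted with edgeR 4.0.16 (R 4.3.3) by the quasi-likelihood test at an adjusted p of 0.05, over both clones with the set as covariate and, in a fit of 4 group means, for each clone and for the difference between clones. Each SE is the size of the log2 change over the root of its F statistic. The fits were tested on simulated counts. DESeq2 1.42.0, other filters, the replicate block and left-out libraries served as alternatives. The GC offset (a spline with 5 degrees of freedom) and the fit without 2 controls were added after the data were seen.

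The members and the 79 lists were chosen with earlier results of these data known. In each list with at least 3 members changed in both clones in 1 direction, up to 4 changed members with the largest absolute log2 fold change are named where their average log2 CPM reached 0, with members that oppose the direction. Outside the lists, the 6 largest rises and falls among protein-coding genes are named where that average reached 1. Other genes were chosen after their values were seen, as stated beside them. A run is 3 or more consecutive tested genes with starts at most 1000000 bases apart. Runs of 4 or more genes are named in full, and of those of 3 only some. Samples with other edits were not used here. Some genes that these rules select are not reported here.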

Additional observations from a re-analysis of the deposited data

Results flagged for a closer look

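The change differed between the clones for 32 of 407 genes selected for naming, by the edgeR test of the difference (adjusted p of 0.05 over all genes). Over all tested genes it differed for 2.65%, but many of the 407 were picked for their change in these same data. Of the 32, 28 changed in both clones in the same direction, and H2BC11, MFSD4A, MT1M and STX18 were called over both clones but not in each. Values are the log2 fold change in clone 3.3 minus that in clone 1.14. Each clone is compared with its own controls, so a value also holds any difference between the control sets. ADGRG6 averaged 9.24 CPM in clone 3.3 and 8.62 in clone 1.14, over 2.05 and 4.26 in controls of sets A and B. ALDH1A2 averaged 4.12 and 4.44 CPM in the clones, under 12.9 and 33.1 in those controls. For CNTN1 the controls averaged 17.5 and 16 CPM and the clones 8.42 and 1.43. How many genes are of each kind was not counted.

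Among genes that fell, a positive value means that the fall was smaller in clone 3.3 and a negative one that it was larger. It was smaller in clone 3.3 for the cytoskeletal and matrix genes ACTL8 (1.58), SPARC (1.63), PLAUR (0.99), AMBN (2.35) and KRT8 (1.01), the adhesion genes CDHR1 (1.14), CNTN1 (2.44) and CD44 (8.99), a hyaluronan receptor named after its values were seen, and the signalling genes GABRA5 (5.55), TIAM1 (3.83) and IFITM1 (1.28). The same held for the metabolic and carrier genes ALDH1A2 (1.26), TKTL1 (5.97), SLC12A3 (2.22) and SLC7A8 (1.32) and for the transcription factors KLF4 (1.26) and ZNF256 (3.11), as for MT1M (2.96) and MFSD4A (1.66) in runs of neighbouring genes. CD44 and TKTL1 had no read in clone 1.14, so their fitted difference depends on the prior count and does not measure its size. The fall was larger in clone 3.3 for RELN (-1.72) and ALX4 (-2.16).

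Among genes that rose, the rise was larger in clone 3.3 for NLGN4X (2.36), KCNMB2 (1.86), GPC5 (1.86), ADGRG6 (1.16), EOMES (1.04) and H2BC11 (1.00). It was smaller in clone 3.3 for GRIA2 (-2.31), FAT3 (-2.27), MACROH2A2 (-0.91), STK32B (-0.94) and STX18 (-0.75).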

How the results depend on the processing

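Under every alternative WAPL stayed lower, with a log2 fold change between -1.50 and -1.36 outside left-out libraries and -1.46 to -1.31 when 1 library was left out. Genes changed in both clones numbered 827 and, with the GC offset, 1258; leaving out 1 library gave 684 to 885. Genes called over both clones (2262) numbered 1841 to 2865 with 1 library left out. Genes whose change differed between clones (339) numbered 211 with at least 10 counts in every sample, 173 with the replicate block and 698 with the GC offset, and 218 to 372 with 1 library left out. Runs (56) numbered 33 with the replicate block, 99 with the GC offset, 104 where 1 gene not called could stand inside a run, 5 where each gene had to pass in each clone, and 37 to 101 with 1 library left out. With the GC offset SLC25A40 turned to -0.04 and PDS5B from 0.05 to -0.28, the latter called. The cause was not tested.

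The main fits did not use replicate numbers as pairs. In set A deviations of same-numbered libraries correlated at -0.534, -0.005 and -0.511, and no library correlated best with its own number. In set B the correlations were 0.061, 0.348 and 0.209, and all 3 libraries correlated best with their own number. With the replicate block 594 genes changed in both clones and 1539 were called over both clones, and 589 of the 827 remained. Falls in both clones then numbered 1 for Eph receptors and ephrins, for metallothioneins and for sodium and calcium channels. They numbered 2 for vesicle and other homeobox genes and 3 for YAP and SRF targets. Rises in both clones numbered 1 for vesicle and other homeobox genes, 2 for chromosome 19 zinc-finger genes and 3 for solute carriers. Of 2532 counts of list members under alternatives, 197 moved by more than 1.5 times, 35 of them under the block, 20 with the GC offset, 12 without the 2 controls and none under DESeq2. With at least 10 counts in every sample, which removes low genes, rises in both clones numbered 2 for non-clustered protocadherins, 1 for semaphorins and for potassium channels and 5 for receptor tyrosine kinases and ligands, and 3 HOX genes fell. The higher share of called genes was 48.4%, and 44.5% to 50.8% under the other fits with all genes. Depth limited genes with few reads in 1 arm, for which read totals are given in place of fitted changes.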
